A study of Mus musculus with 22 samples.

Results

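The contractile genes of myofibroblasts and smooth muscle were followed in the granulation tissue of Mmp13-/- and WT mice, induced by viscose cellulose sponges (VCS) placed under the skin of the back. The 10 genes were Acta2, Actg2, Tagln, Myl9, Mylk, Cnn1, Myh11, Tpm1, Tpm2 and Des, a list set by gene name, with no value on these arrays in the rule, although earlier results of these data were known when it was made. They are measured by 22 probe sets annotated to 1 of these genes alone, out of 45037 probe sets tested and 18193 genes with a probe set of their own. A probe set is a group of short oligonucleotides against 1 stretch of RNA, here near its 3' end. No probe set was annotated to a member and another gene together. Tpm1 and Tpm2 have 4 probe sets each, Acta2 and Mylk 3, Myh11 and Des 2, and the other 4 genes 1. Values are RMA signals on the log2 scale, so that a difference of 1 is a 2-fold difference, and levels of different probe sets are not compared with each other. In all, 7 of the 22 probe sets had a mean below 4.22, the median of all probe set means, and are called dim. They are 2 of Acta2 and 1 each of Mylk, Cnn1, Myh11, Tpm1 and Des, and for Cnn1 the dim probe set is the only one. Unless another is named, a gene is represented by its brightest probe set.

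The tissue came from Mmp13-/- mice at 7 d (3 arrays), 14 d (4 arrays) and 21 d (4 arrays) after implantation, and from WT mice with the same numbers. Mmp13, which encodes a collagenase, was inactivated in all cells. The mice were 5 to 8 weeks old, and the methods describe them as males. The sample labels give a mixed background of C57BL/6 and 129, whereas the description of the series gives at least 7 generations of backcrossing to C57BL6, with WT mice bred from the backcrossed heterozygotes. Each array is from 1 mouse, and RNA was taken from the ends of the sponge, so that every cell type of the tissue contributed. In such samples fewer cells of a type and less RNA per cell cannot be told apart. The study asked how the lack of MMP-13 alters granulation tissue, including its myofibroblasts, as it forms and matures.

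Myofibroblasts are contractile cells that arise from fibroblasts and other stromal cells in healing wounds and pull the wound edges together. They build bundles of smooth muscle actin that slide on non-muscle myosin, and they share many of these proteins with vascular smooth muscle cells and pericytes. Contraction starts when calcium and calmodulin activate myosin light chain kinase, which phosphorylates the regulatory light chain of myosin. Transforming growth factor beta and mechanical tension are known inducers of the program, and serum response factor with its myocardin-related partners switches on many of its genes through CArG boxes in their promoters.

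The proximal promoters of Acta2 and Myl9 are shown because both genes followed a like course over the arrays and both windows hold CArG boxes. The windows are from RefSeq on GRCm38.p6 and reach from 250 bases before to 50 bases after the transcription start. That of Acta2 lies at chr19:34255324-34255623 on the minus strand and that of Myl9 at chr2:156775214-156775513 on the plus strand. Capitals mark CArG boxes, exact or with 1 base of the A and T run replaced by G or C.
Acta2: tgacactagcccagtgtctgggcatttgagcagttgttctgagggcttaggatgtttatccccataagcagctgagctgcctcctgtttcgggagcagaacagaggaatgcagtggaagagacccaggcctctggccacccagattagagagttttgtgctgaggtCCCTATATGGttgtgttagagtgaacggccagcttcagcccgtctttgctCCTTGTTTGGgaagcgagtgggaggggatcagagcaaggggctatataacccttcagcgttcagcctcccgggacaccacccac
Myl9: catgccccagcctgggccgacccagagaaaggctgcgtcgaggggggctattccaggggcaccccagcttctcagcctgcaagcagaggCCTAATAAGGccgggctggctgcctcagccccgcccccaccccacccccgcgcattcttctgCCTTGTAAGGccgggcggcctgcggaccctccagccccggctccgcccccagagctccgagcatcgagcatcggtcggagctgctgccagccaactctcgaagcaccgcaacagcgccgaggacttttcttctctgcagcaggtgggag
Myl9 held an exact CArG box whose first base lies at -161 from the start and 1 with a replaced base at -99. Acta2 held 2 with a replaced base, at -84 and -34, and no exact one. The search covered both strands, on which the box reads the same. Of 32851 RefSeq promoter windows of this length, 1.63% held an exact box and 9.98% a box with at most 1 replaced base. The MCAT motif GGAATG, a site of TEAD factors searched on both strands, was found in Acta2 (-146), Mylk (-158) and Tpm1 (-56), and in 14.7% of all windows. Windows were at hand for 7 of the 10 genes. Those of Mylk, Cnn1, Tpm1, Tpm2 and Des held no CArG box in these letters, and those of Actg2, Tagln and Myh11 were not analysed here.

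Hybridization was done in 2 series, with 2 µg of RNA and a one-cycle labelling kit in series 1 and 250 ng and a 3' in vitro transcription kit in series 2. All tissue of 7 d was in series 1 and all tissue of 21 d in series 2. At 14 d, replicate 4 of either genotype was in series 2 and the others in series 1. Array medians ran from 4.16 to 4.27, and r between the arrays of 1 group, taken across probe sets, was 0.977 to 0.996. Mmp13 itself read 7.62 to 8.63 on the Mmp13-/- arrays and 10.26 to 12.02 on the WT arrays. Of the arrays, 3 stood apart by their markers. WT 7 d replicate 1 had the lowest mean of all 22 arrays for the markers of pericytes (5.59, other arrays 6.91 to 8.06), endothelial cells (5.39, other arrays 6.14 to 7.66) and skeletal muscle (5.71, other arrays 6.29 to 9.91), and the highest for macrophages (10.87). It was also the lowest array for Acta2, Actg2, Tagln, Myl9, Mylk and Des. WT 14 d replicates 1 and 3 had keratinocyte marker means of 5.55 and 5.89, above those of all other arrays, and replicate 3 also had the highest means for pericytes (8.06) and endothelial cells (7.66). Called rises of single genes in WT tissue are therefore also given without WT 7 d replicate 1 and, where the call changed, without WT 14 d replicate 3. All 22 arrays entered 1 limma model with 6 group means and the hybridization series as terms. A probe set is called where its p, after Benjamini-Hochberg adjustment across the 45037, is under 0.05, and the number of arrays limits the precision.

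The mean signals of the smooth muscle actins were higher at 14 d than at 7 d in both genotypes, and 1 of these differences, that of Acta2 in WT tissue, passed the test. Acta2 encodes alpha smooth muscle actin, the defining protein of the myofibroblast. In Mmp13-/- tissue Acta2 read 10.40, 10.22 and 10.81 at 7 d, 11.71, 11.57, 11.42 and 11.44 at 14 d, and 11.73, 11.64, 11.73 and 11.40 at 21 d. In WT tissue it read 9.42, 10.44 and 11.13 at 7 d, 11.35, 11.13, 11.82 and 11.60 at 14 d, and 11.68, 11.31, 11.87 and 11.70 at 21 d. Every Mmp13-/- array of 14 d lay above every one of 7 d, and in WT tissue the highest array of 7 d equalled the lowest of 14 d. The fitted difference of 14 d minus 7 d was 1.05 in Mmp13-/- tissue (standard error 0.28, adjusted p = 0.111 from limma) and 1.14 in WT tissue (standard error 0.28, adjusted p = 0.0371). The WT difference was 0.69 without WT 7 d replicate 1 (adjusted p = 0.153 from limma) and 0.996 without WT 14 d replicate 3 (adjusted p = 0.162), and was called in neither case, and within series 1 alone it was 1.10 (adjusted p = 0.130). Between 14 d and 21 d Acta2 differed by 0.08 in Mmp13-/- and 0.15 in WT tissue, less than the SD of the arrays of 14 d in WT tissue (0.30).

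Actg2, the gamma smooth muscle actin best known from the gut wall, had its highest signals at the last day. Its signals in Mmp13-/- tissue were 4.35, 4.73 and 4.42 at 7 d, 6.17, 5.25, 5.26 and 5.68 at 14 d, and 6.97, 7.04, 6.76 and 5.24 at 21 d. In WT tissue they were 4.00, 4.54 and 5.33 at 7 d, 5.67, 5.38, 6.08 and 5.93 at 14 d, and 7.01, 6.50, 7.72 and 7.51 at 21 d. The WT arrays of the 3 days did not overlap, and in Mmp13-/- tissue 1 array of 21 d, replicate 4, lay just under the lowest array of 14 d. Actg2 was 1.05 higher at 14 d than at 7 d in Mmp13-/- tissue (adjusted p = 0.457 from limma) and 1.10 higher in WT tissue (adjusted p = 0.247), and neither passed. Without WT 7 d replicate 1 it was 0.79 higher in WT tissue (adjusted p = 0.573 from limma). From 14 d on the fitted differences were 0.79 in Mmp13-/- and 1.29 in WT tissue (standard error 0.47 each, adjusted p = 0.481 and 0.216 from limma). The WT difference was called when the hybridization series was left out of the model (1.42, adjusted p = 0.0162 from limma). Leaving it out also raised the number of calls over all probe sets manyfold, as given in the section on processing at the end. The 21 d arrays are all of series 2, which also holds 1 array of 14 d per genotype. Within that series the differences were 0.82 in Mmp13-/- and 1.25 in WT tissue (limma adjusted p = 0.893 and 0.950).

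Between 7 d and 14 d, Tagln and Myl9 had the largest differences of the 10 genes in both genotypes. Tagln encodes transgelin (SM22), an actin-binding protein of smooth muscle and an early marker of the contractile state. It read 7.80, 7.69 and 7.98 in Mmp13-/- tissue at 7 d, 9.91, 9.83, 9.49 and 9.61 at 14 d, and 10.23, 9.91, 10.10 and 9.80 at 21 d. In WT tissue it read 6.53, 8.16 and 8.34 at 7 d, 9.42, 9.06, 9.93 and 9.65 at 14 d, and 9.94, 9.73, 10.27 and 9.97 at 21 d. All arrays of 14 d lay above all arrays of 7 d in both genotypes, while those of 14 d and 21 d overlapped. Tagln rose by 1.88 in Mmp13-/- tissue, 3.68-fold (95% CI 1.24 to 2.52 on the log2 scale, adjusted p = 0.00502 from limma), and by 1.83 in WT tissue, 3.56-fold (95% CI 1.19 to 2.47, adjusted p = 0.00291). Without WT 7 d replicate 1 the rise in WT tissue was 1.26 and was still called (adjusted p = 0.00399 from limma).

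Myl9 encodes the regulatory light chain of smooth muscle and non-muscle myosin, the substrate of myosin light chain kinase. Its signals in Mmp13-/- tissue were 6.69, 6.87 and 7.01 at 7 d, 8.77, 8.73, 8.21 and 7.89 at 14 d, and 8.90, 8.36, 8.79 and 8.44 at 21 d. In WT tissue they were 5.67, 6.96 and 7.18 at 7 d, 8.46, 8.20, 8.95 and 8.26 at 14 d, and 9.25, 8.60, 9.26 and 8.64 at 21 d. The arrays of 7 d stood below all later arrays in both genotypes. Myl9 rose by 1.66 in Mmp13-/- tissue, 3.17-fold (95% CI 1.05 to 2.28, adjusted p = 0.0086 from limma), and by 1.98 in WT tissue, 3.96-fold (95% CI 1.37 to 2.60, adjusted p = 0.00107). Leaving out Mmp13-/- 7 d replicate 1 ended the call in Mmp13-/- tissue (1.58, limma adjusted p = 0.0676). In WT tissue the rise was 1.52 without WT 7 d replicate 1 (adjusted p = 0.00366). Between 14 d and 21 d Myl9 differed by 0.58 in Mmp13-/- and 0.83 in WT tissue, and neither passed (adjusted p = 0.477 and 0.282 from limma).

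**Figure D1:**
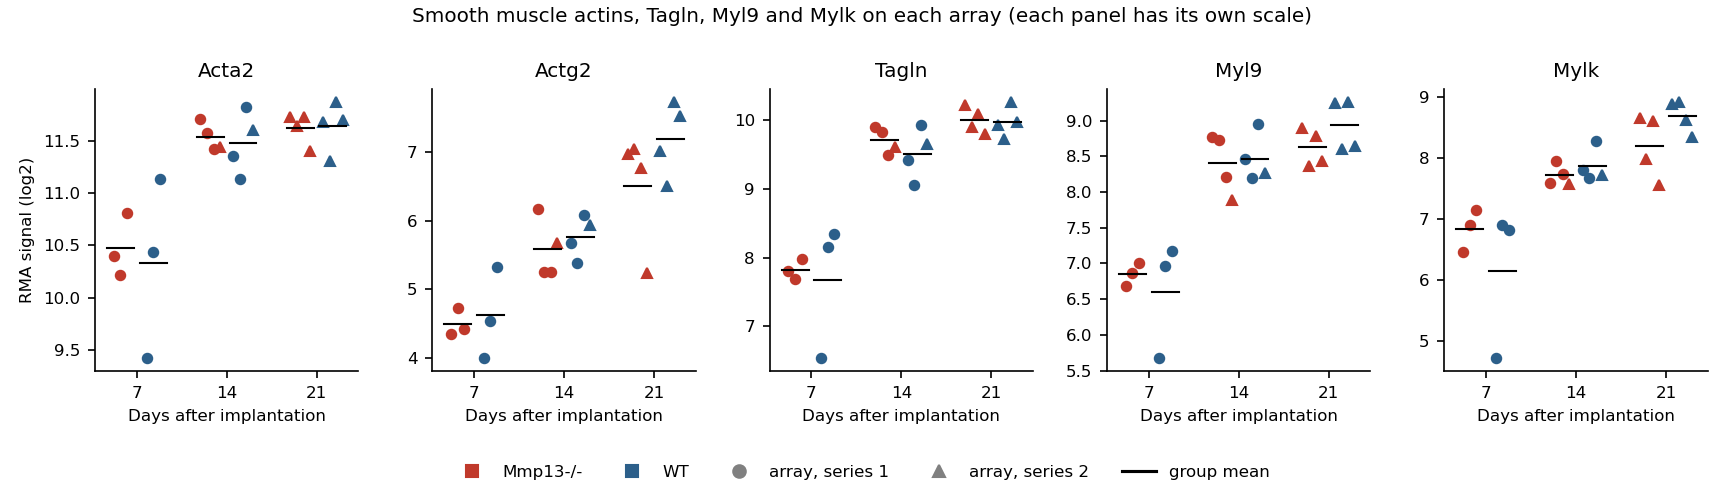
RMA signal (log2) of the brightest probe set of Acta2, Actg2, Tagln, Myl9 and Mylk on each of the 22 arrays, by days after implantation, with Mmp13-/- in red left of WT in blue, circles for hybridization series 1, triangles for series 2 and lines for group means. Actg2, Tagln, Myl9 and Mylk lie apart at 7 d and 14 d in both genotypes, and 1 WT array of 7 d is the lowest in every panel, at 9.42 for Acta2 and 4.72 for Mylk.

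Mylk, which encodes myosin light chain kinase, spread widely at 7 d in WT tissue. In Mmp13-/- tissue it read 6.46, 6.91 and 7.15 at 7 d, 7.60, 7.96, 7.74 and 7.58 at 14 d, and 8.66, 7.99, 8.60 and 7.56 at 21 d. In WT tissue it read 4.72, 6.91 and 6.82 at 7 d, 7.80, 7.67, 8.28 and 7.73 at 14 d, and 8.89, 8.92, 8.62 and 8.34 at 21 d. The WT arrays of the 3 days were in ascending order without overlap, and the Mmp13-/- arrays of 14 d and 21 d overlapped. Mylk rose by 1.77 between 7 d and 14 d in WT tissue (standard error 0.39, adjusted p = 0.0212 from limma), and the difference of 0.93 in Mmp13-/- tissue did not pass (standard error 0.39, adjusted p = 0.589). The test of the difference between these changes was not passed (-0.84, adjusted p = 1 from limma). Without WT 7 d replicate 1 the WT difference was 1.05 (adjusted p = 0.0609), and without WT 14 d replicate 3 it was 1.62 (adjusted p = 0.0927), so that the call rests on both arrays. A second Mylk probe set, 1425505_at, rose by 1.79 in WT tissue (adjusted p = 0.00761 from limma, and 1.24 with adjusted p = 0.0296 without WT 7 d replicate 1) and differed by 1.16 in Mmp13-/- tissue (adjusted p = 0.190), and the third is dim and read 3.34 to 4.20 on all arrays. Over the 22 arrays the mean of 7 pericyte markers correlated with Mylk at r = 0.861, against 0.781 for Acta2, 0.749 for Myl9 and 0.740 for Tagln. Over the 21 arrays other than WT 7 d replicate 1 the values were 0.710 for Mylk, 0.570 for Acta2, 0.596 for Myl9 and 0.549 for Tagln. As deviations from the group means on these 21 arrays they were 0.570 for Mylk, 0.342 for Acta2, 0.188 for Myl9 and 0.315 for Tagln. None of these markers was dim, and their array means lay between 6.91 and 7.55 in Mmp13-/- and between 5.59 and 7.17 in WT tissue at 7 d. At 14 d they lay between 7.23 and 7.46 in Mmp13-/- and between 7.40 and 8.06 in WT tissue. The median 14 d minus 7 d difference of the 7 was 0.07 in Mmp13-/- and 1.29 in WT tissue. The WT median includes WT 7 d replicate 1, with a marker mean of 5.59, and is not given without that array. The test of the difference between the genotypes in this change was passed by 0 of the 7 (0% of all genes). Between 7 d and 14 d none of the 7 was called in Mmp13-/- tissue (0.945% of all genes) and 2 were called in WT tissue (2.54% of all genes), both higher at 14 d. These were Pdgfrb, a growth factor receptor of mural cells (1.57, adjusted p = 0.0113 from limma), and Notch3 (1.37, adjusted p = 0.0166 from limma). Neither was called without WT 7 d replicate 1 (1.14 and 0.92, limma adjusted p = 0.0639 and 0.0758) or without WT 14 d replicate 3 (1.45 and 1.14, adjusted p = 0.0578 and 0.0879). The part of pericytes in the member genes' changes was not tested.

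The markers of differentiated smooth muscle, Cnn1 and Myh11, had no called change. The mean of the Cnn1 probe set lay below the dim limit and that of the leading Myh11 probe set above it. Cnn1 encodes calponin, which binds actin and dampens myosin's ATPase, and its single, dim probe set read 3.35 to 4.10 in Mmp13-/- tissue and 3.42 to 4.58 in WT tissue over all days. The 14 d minus 7 d differences of 0.24 in Mmp13-/- and 0.36 in WT tissue did not pass (adjusted p = 1 and 0.673 from limma), although the WT arrays of 14 d all lay above those of 7 d. Myh11, the smooth muscle myosin heavy chain, is the most restricted marker of mature smooth muscle. It read 3.92 to 4.95 in Mmp13-/- and 3.93 to 5.13 in WT tissue, with the groups of all days overlapping in each genotype. Its signal was lower in series 2 than in series 1 by the model (-0.75, adjusted p = 0.0328 from limma), so that its differences between days depend on that term. With the term, Myh11 was 0.57 higher at 21 d than at 14 d in Mmp13-/- tissue (adjusted p = 0.335), and without it the difference was 0.01. The second Myh11 probe set is dim and read 2.69 to 3.62.

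Tropomyosins lie along actin filaments and control the access of myosin, and each of the 2 genes makes muscle and non-muscle forms by alternative splicing. The 4 probe sets of Tpm1 and the 4 of Tpm2 did not follow 1 course. Of Tpm1, the second brightest probe set, 1423721_at, read 9.05, 8.74 and 8.94 in Mmp13-/- tissue at 7 d and 9.75, 9.56, 9.57 and 9.21 at 14 d. In WT tissue it read 9.08, 9.10 and 9.19 at 7 d and 9.42, 9.55, 9.64 and 9.54 at 14 d. The days did not overlap in either genotype. It rose by 0.66 in Mmp13-/- tissue, 1.58-fold (standard error 0.12, adjusted p = 0.00833 from limma), and by 0.47 in WT tissue, 1.38-fold (standard error 0.12, adjusted p = 0.0448). The WT call was lost without WT 7 d replicate 1 (0.44, limma adjusted p = 0.122) and without WT 14 d replicate 3 (0.44, adjusted p = 0.150), and the Mmp13-/- call without Mmp13-/- 7 d replicate 2 (0.58, adjusted p = 0.0694). The brightest Tpm1 probe set, 1423049_a_at, scattered between 8.47 and 10.16 in Mmp13-/- and between 8.88 and 10.66 in WT tissue at 7 d, and its differences between 14 d and 7 d were 0.47 in Mmp13-/- and 0.22 in WT tissue (adjusted p = 1 and 0.999 from limma).

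Tpm2 had its highest raw group means at 21 d by its leading probe set, 1419738_a_at. In Mmp13-/- tissue it read 9.61, 9.02 and 9.80 at 7 d, between 9.62 and 10.17 on the 4 arrays of 14 d, and 10.31, 10.11, 10.23 and 10.21 at 21 d. In WT tissue it read 9.11, 9.38 and 10.05 at 7 d, 9.77, 9.66, 10.17 and 10.24 at 14 d, and 10.19, 9.88, 10.51 and 10.27 at 21 d. Consecutive days overlapped in both genotypes, while in Mmp13-/- tissue every array of 21 d lay above every array of 7 d. The differences of 14 d minus 7 d, 0.43 in Mmp13-/- and 0.38 in WT tissue, did not pass (adjusted p = 0.817 and 0.671 from limma). The 7 d arrays are all of series 1 and the 21 d arrays all of series 2, so the raw order also holds the series. The model put this probe set 0.28 higher in series 2 (adjusted p = 0.476 from limma). Fitted with that term, its change after 14 d came to 0.03 for Mmp13-/- mice and 0.04 for WT mice (adjusted p = 0.978 and 0.965 from limma). Another Tpm2 probe set, 1449577_x_at, ran from 5.73 to 8.83 within the Mmp13-/- arrays of 7 d alone and from 4.96 to 9.62 within the WT arrays of that day.

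Des encodes desmin, the intermediate filament protein of muscle cells, which is also found in pericytes. It read 8.67, 6.91 and 9.46 in Mmp13-/- tissue at 7 d, 8.65, 8.34, 7.04 and 8.31 at 14 d, and 7.25, 7.50, 7.46 and 8.22 at 21 d. In WT tissue it read 6.47, 8.38 and 9.76 at 7 d, 8.00, 7.88, 8.74 and 8.17 at 14 d, and 7.43, 7.76, 7.41 and 7.40 at 21 d. The 3 WT arrays of 7 d spanned the whole range of the gene, those of Mmp13-/- most of it, and only the WT arrays of 21 d, all below those of 14 d, stood apart from a neighbouring day. No difference of Des between days passed, and the fitted differences of 14 d minus 7 d were -0.29 in Mmp13-/- (standard error 0.61) and -0.04 in WT tissue (standard error 0.61). The second Des probe set is dim and read 2.48 to 3.27.

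**Figure D2:**
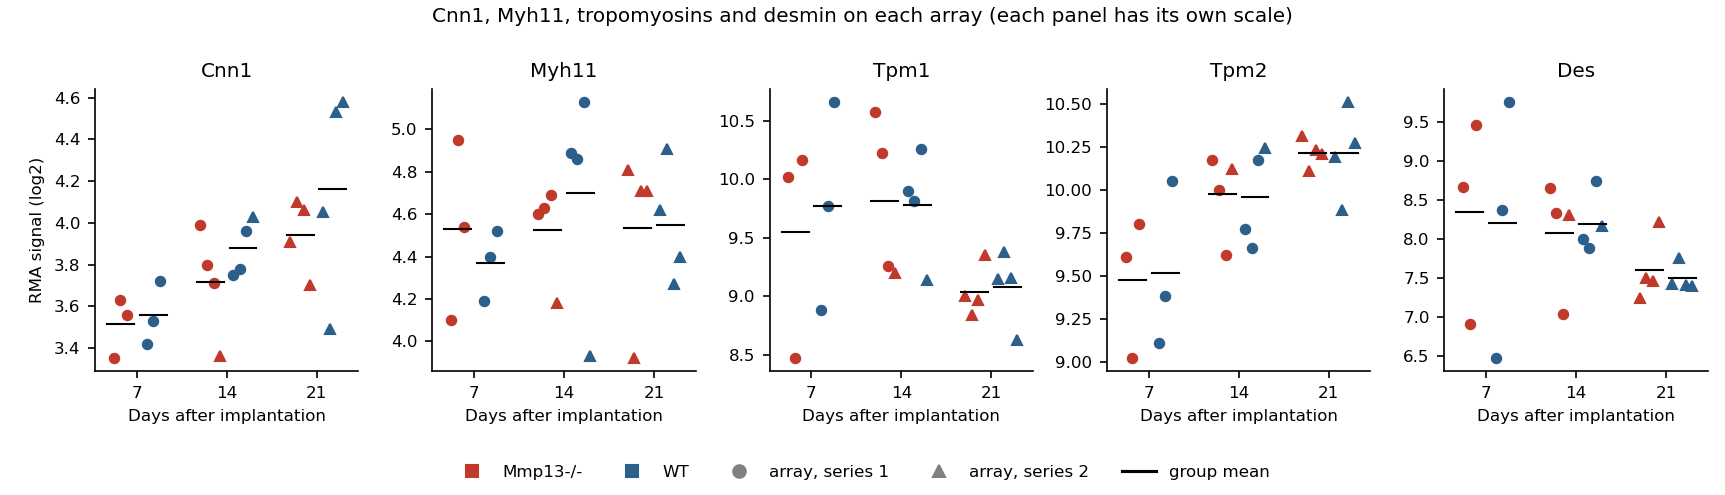
RMA signal (log2) of the brightest probe set of Cnn1, Myh11, Tpm1, Tpm2 and Des on each of the 22 arrays, with the same symbols as for the rising genes. Des and Tpm1 scatter most at 7 d, where Des runs from 6.91 to 9.46 in Mmp13-/- and from 6.47 to 9.76 in WT tissue.

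The scatter of Des and of some tropomyosin probe sets went with markers of skeletal muscle, a tissue that lies under the dorsal skin. The 15 markers, among them Acta1, the skeletal muscle actin, and Ckm, muscle creatine kinase, were all above the dim limit on average. Their mean per array ran from 6.29 to 9.58 in Mmp13-/- and from 5.71 to 9.91 in WT tissue at 7 d, from 6.64 to 9.75 in Mmp13-/- and from 8.35 to 9.39 in WT tissue at 14 d, and from 7.03 to 8.63 in Mmp13-/- and from 6.68 to 8.68 in WT tissue at 21 d. None of the markers was called in any comparison of the genotypes or of the days. All 15 had lower fitted values at 21 d than at 14 d, with medians of -0.90 in Mmp13-/- and -1.31 in WT tissue. From 7 d to 14 d, 13 were higher in Mmp13-/- (median 0.32) and 15 in WT tissue (median 0.73), where WT 7 d replicate 1 was the lowest array. Over the 22 arrays, which share days and hybridization series, this mean correlated with Des at r = 0.930, with Tpm2 1449577_x_at at 0.972, with Tpm2 1419739_at at 0.849, with Tpm1 1447713_at, a dim probe set, at 0.935, and with Tpm1 1423049_a_at at 0.885. For Acta2 the value was 0.218, for Tagln 0.101, for Myl9 0.0933, for Mylk 0.0702, for Actg2 -0.207, for Tpm1 1423721_at -0.0825 and for Tpm2 1419738_a_at 0.242. As deviations from the group means the values were 0.587 for Acta2, 0.596 for Tagln, 0.616 for Tpm2 1419738_a_at and 0.949 for Des. These deviations, without WT 7 d replicate 1, correlated at 0.282 for Acta2, 0.243 for Tagln, 0.509 for Tpm2 1419738_a_at and 0.922 for Des. Tpm2 1425028_a_at, at 0.444 over the 22 arrays, had deviations that correlated at 0.785, and at 0.692 without that array.

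With the skeletal muscle mean as a further covariate, an alternative chosen after the data were seen, the calls of the 14 d minus 7 d comparison stayed at 3 probe sets in Mmp13-/- tissue and were 5 in WT tissue. The rise of Tagln was then 1.80 in Mmp13-/- (adjusted p = 0.00166 from limma) and 1.70 in WT tissue (adjusted p = 0.00174), and that of Acta2 in WT tissue was 1.02 (adjusted p = 0.0289). The Acta2 difference in Mmp13-/- tissue, 0.99, was not called (adjusted p = 0.0602).

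**Figure D3:**
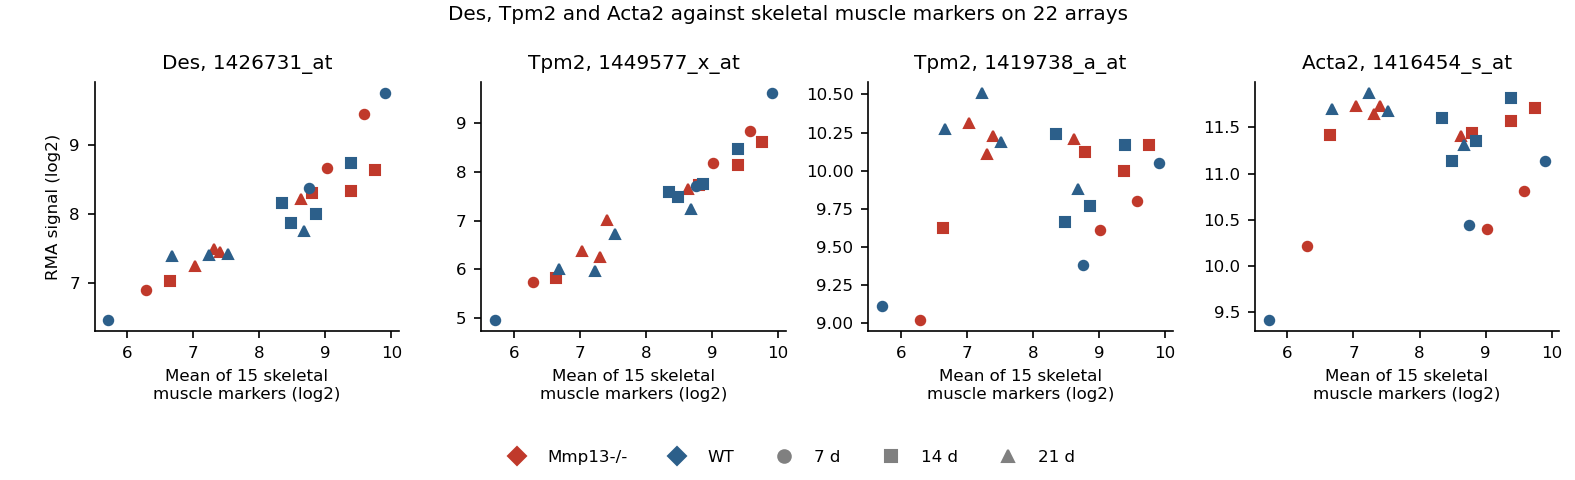
RMA signal (log2) of Des, of 2 Tpm2 probe sets and of Acta2 against the mean of 15 skeletal muscle markers (log2) on the 22 arrays, Mmp13-/- in red and WT in blue, with circles for 7 d, squares for 14 d and triangles for 21 d. Des and Tpm2 1449577_x_at follow the marker mean (r = 0.930 and 0.972), and Acta2 and Tpm2 1419738_a_at do not to that extent (r = 0.218 and 0.242).

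All member probe sets called between 7 d and 14 d were higher at 14 d, and over the 22 the difference was positive for 19 in Mmp13-/- and 15 in WT tissue. In Mmp13-/- tissue 3 of the 22 were called, against 0.628% of all probe sets, and all 3 were higher at 14 d (0.326% of all probe sets were called higher). They belong to Tagln, Myl9 and Tpm1. In WT tissue 6 of the 22 were called, against 1.7% of all probe sets, again all higher (1.13% of all). They belong to Acta2, Tagln, Myl9, Mylk (2 probe sets) and Tpm1. By gene, the median log2 difference of the 10 was 0.70 in Mmp13-/- and 0.81 in WT tissue, and over all 18193 genes it was 0.00 in both. The arrays of 14 d and 7 d did not overlap for 5 of the 10 genes in Mmp13-/- tissue (13.5% of all genes) and for 5 in WT tissue (13.7%), all with 14 d above. Without WT 7 d replicate 1 the count of WT calls was 3, and it was also 3 without WT 14 d replicate 3. When only the arrays of WT at 7 d and 14 d were fitted, no member was called. Calls over all probe sets also fell in that fit, to 285 from 767 in the main fit. Tagln had a limma adjusted p of 0.166 there and Myl9 of 0.0909.

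Between 14 d and 21 d no member probe set was called in either genotype by limma. Of all probe sets 0.0799% were called in Mmp13-/- tissue and 0.42% in WT tissue. At an unadjusted p under 0.05, 3 of the 22 passed in Mmp13-/- tissue (13.7% of all) and 6 in WT tissue (14.1% of all), among them probe sets of Actg2, Myl9 and Mylk in WT tissue. Arrays of 21 d and 14 d did not overlap for 0 of the 10 genes in Mmp13-/- tissue (13.1% of all genes) and for 3 in WT tissue (14.7%), Actg2 and Mylk above and Des below. The medians of the 10 genes were 0.31 in Mmp13-/- and 0.40 in WT tissue.

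Set against WT tissue of the same day, Mmp13-/- tissue had no member probe set called at any day. At 7 d 0 of the 22 passed (0.00888% of all probe sets), at 14 d 0 (0.0178%) and at 21 d 0 (0.0488%). At an unadjusted p under 0.05 the counts of members were 0 at 7 d (2.16% of all), 0 at 14 d (3.98%) and 2 at 21 d (11.9%). The 2 were a dim Acta2 probe set, 1456658_at (0.38, adjusted p = 0.186 from limma), and Tpm1 1423721_at (-0.23, adjusted p = 0.403), which read 9.77, 9.53, 9.63 and 9.44 in Mmp13-/- and 9.87, 9.65, 9.93 and 9.82 in WT tissue. By its brightest probe set, every one of the 10 genes had overlapping arrays of both genotypes at each day. Of all genes, 8.77% did not overlap at 7 d, 4.01% at 14 d and 3.36% at 21 d. At 7 d the arrays of Tpm1 1423721_at did not overlap, at 8.74 to 9.05 in Mmp13-/- and 9.08 to 9.19 in WT tissue. Those of a dim Des probe set, 1426732_at, did not overlap at 7 d either, with Mmp13-/- lower. Over the 30 exact permutation tests of the brightest probe sets (two-sided) p ran from 0.2 to 1, and every Benjamini-Hochberg value over the 30 was 1. With 3 arrays against 3 the smallest p such a test can give is 0.1, and with 4 against 4 it is 0.0286.

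The intervals of these differences show what the arrays could resolve. For Acta2, the Mmp13-/- minus WT difference was 0.15 at 7 d (95% CI -0.45 to 0.74), 0.06 at 14 d (95% CI -0.45 to 0.57) and -0.01 at 21 d (95% CI -0.53 to 0.50). For Tagln it was 0.15 (95% CI -0.52 to 0.81), 0.20 (95% CI -0.38 to 0.77) and 0.03 (95% CI -0.54 to 0.61) in the order of the days. Myl9 was 0.25 higher in Mmp13-/- tissue at 7 d and 0.32 lower at 21 d, and Mylk was 0.69 higher at 7 d (95% CI -0.15 to 1.53) and 0.49 lower at 21 d (95% CI -1.22 to 0.24), none of them past the threshold. The Actg2 difference at 21 d was -0.68 (95% CI -1.43 to 0.06, adjusted p = 0.462 from limma). It rested on Mmp13-/- 21 d replicate 4, without which it was -0.26 (adjusted p = 0.777 from limma), and that of Mylk was then -0.28 (adjusted p = 0.815). The differences of Des had the widest intervals, from -1.17 to 1.46 at 7 d, and those of Tpm2 and Myh11 at 14 d and 21 d were within 0.18 of 0. Without WT 7 d replicate 1 the differences at 7 d were of the other sign for Acta2 (-0.31), Tagln (-0.43), Myl9 (-0.21), Mylk (-0.02) and Des (-0.72), each with an adjusted p of 1 from limma. Without WT 7 d replicate 3 they were 0.55 for Acta2, 0.48 for Tagln, 0.54 for Myl9 and 0.92 for Des, and none was called. The sign at 7 d thus depended on single WT arrays.

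**Figure D4:**
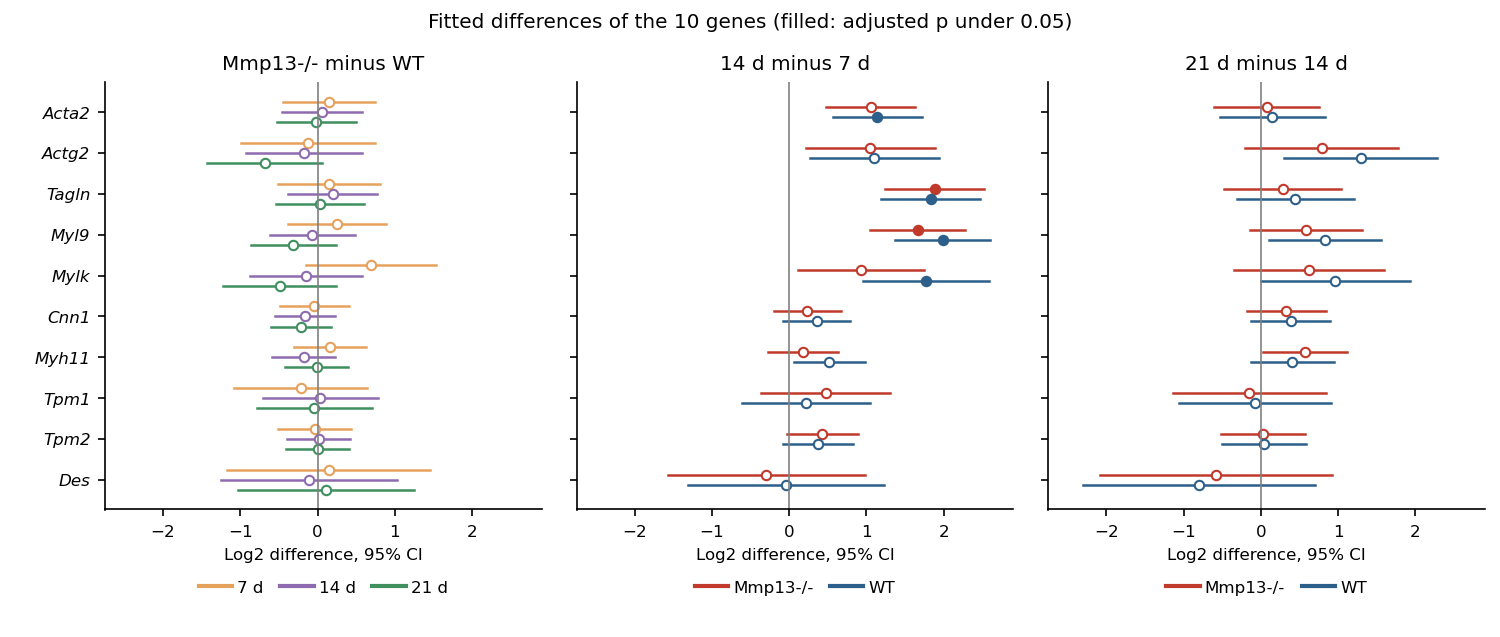
Fitted log2 differences of the 10 genes with 95% confidence intervals from the limma model, for Mmp13-/- minus WT at each day (left), 14 d minus 7 d (middle) and 21 d minus 14 d (right) in each genotype, filled where the adjusted p is under 0.05. All genotype differences are open, and the filled points are Tagln and Myl9 in Mmp13-/- and Acta2, Tagln, Myl9 and Mylk in WT tissue at 14 d minus 7 d.

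The change of the genotype difference from day to day was tested as an interaction. Neither that of 14 d minus 7 d (0% of all probe sets called) nor that of 21 d minus 14 d (0%) was called for any of the 22, and at an unadjusted p under 0.05 the counts of members were 0 (2.29% of all) and 0 (6.58%). The mean of the genotype differences over the 3 days was called for 0 of the 22 (0.0688% of all), with 1 at an unadjusted p under 0.05 (6.56% of all), Tpm1 1423721_at (-0.15, adjusted p = 0.681 from limma). The 2 interactions share the arrays of 14 d.

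The pairs with the closest course were Acta2, Tagln and Myl9. Over the 22 arrays Acta2 correlated with Tagln at r = 0.969, with Myl9 at 0.944, with Tpm2 at 0.895, with Mylk at 0.883 and with Actg2 at 0.809, and Tagln with Myl9 at 0.970. These values hold the shared course over the days, and as deviations from the group means they were 0.937, 0.811, 0.825, 0.731 and 0.658 for Acta2 and 0.865 for Tagln with Myl9. Without WT 7 d replicate 1 the deviations correlated less, at 0.858 for Acta2 with Tagln, 0.627 with Myl9, 0.855 with Tpm2, 0.325 with Mylk and 0.642 with Actg2, and at 0.745 for Tagln with Myl9. Over the 21 arrays as such, Acta2 with Tagln was then 0.954 and with Mylk 0.789. Cnn1 followed with 0.669, and Myh11 stood outside with 0.150 over all arrays and 0.013 within groups. Des and Tpm1 formed a pair with each other, at 0.839 both over all arrays and within groups, and reached 0.124 and 0.061 with Acta2 over all arrays, against 0.747 and 0.583 within groups.

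**Figure D5:**
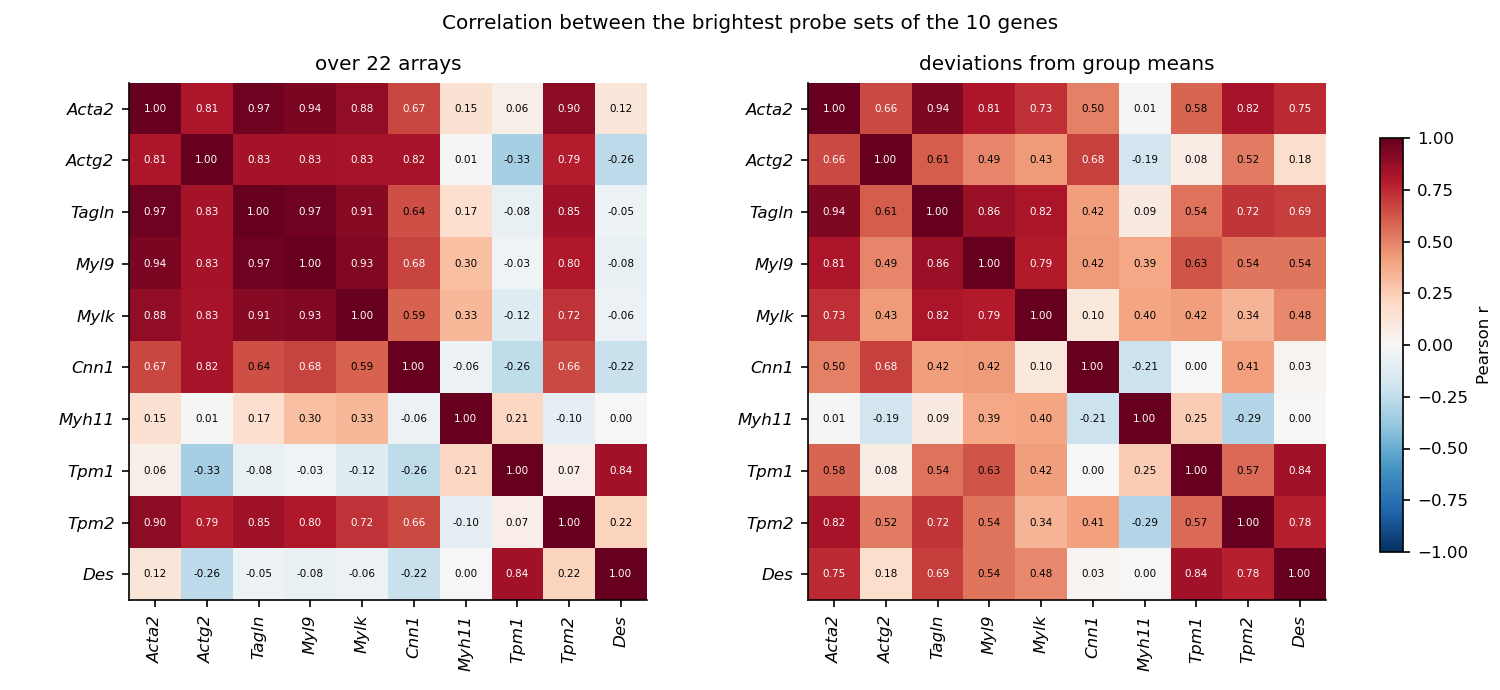
Pearson r between the brightest probe sets of the 10 genes over the 22 arrays (left) and between their deviations from the group means (right), from blue (-1) to red (1). Acta2, Actg2, Tagln, Myl9, Mylk and Tpm2 form a block on the left, outside of which Des and Tpm1 pair at 0.839.

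Of all other genes, those closest to Acta2 over the 22 arrays were Ccn4 (r = 0.972), a matricellular protein induced by Wnt signals, Tgfb3 (0.958), a transforming growth factor beta ligand, and Ncam1 (0.940), a neural cell adhesion molecule. They were followed by F2r (0.934), the thrombin receptor PAR1, Mn1 (0.931), a transcriptional coregulator, Msrb3 (0.928), a methionine sulfoxide reductase, Cilp (0.921) and Fbln2 (0.920), both matrix proteins. As deviations from the group means the 8 values were between 0.771 (Msrb3) and 0.940 (Ccn4). Without the 2 arrays farthest from the Acta2 median, WT 7 d replicate 1 and Mmp13-/- 7 d replicate 2, they were between 0.821 (Cilp) and 0.955 (Ncam1).

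Other genes of the contractile apparatus were called in small numbers. Of 32 contractile partners, such as actinins, filamins, non-muscle myosins and leiomodin, 30 were measured. In Mmp13-/- tissue 1 of the 30 was called between 7 d and 14 d (0.945% of all genes), Actn4, an actin cross-linker (0.36, adjusted p = 0.0326 from limma). Its WT difference of 0.30 did not pass (adjusted p = 0.0561 from limma). In WT tissue 3 of the 30 were called (2.54% of all genes), all higher at 14 d: Csrp1, a LIM protein of smooth muscle (0.74, adjusted p = 0.00879), Myh9, the heavy chain of non-muscle myosin IIA (0.51, adjusted p = 0.0154), and Palld, palladin of the stress fibres (0.89, adjusted p = 0.0353). In Mmp13-/- tissue these genes differed by 0.51, 0.32 and 0.69, and none passed (adjusted p = 0.164, 0.318 and 0.228 from limma). Of these 3, Csrp1 alone was still called without WT 7 d replicate 1 (0.69, limma adjusted p = 0.0420), and Csrp1 and Myh9 without WT 14 d replicate 3 (limma adjusted p = 0.0238 and 0.0443). The median difference of the 30 was 0.16 in Mmp13-/- and 0.29 in WT tissue and over all genes it was 0.00. None was called between 14 d and 21 d or between genotypes.

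Regulators and matrix genes were compared between 7 d and 14 d, where 0.945% of all genes were called in Mmp13-/- and 2.54% in WT tissue. Of 14 regulators in the serum response factor and transforming growth factor beta pathways, all were measured. Tgfb3 rose by 1.34 in Mmp13-/- (adjusted p = 0.00718 from limma) and by 1.47 in WT tissue (adjusted p = 0.00163 from limma). Its WT rise was 1.12 without WT 7 d replicate 1 (adjusted p = 0.00639 from limma). Klf4, a transcription factor known to repress smooth muscle genes, fell by 1.05 in Mmp13-/- tissue (adjusted p = 0.0399 from limma), and its WT difference of -0.90 did not pass (adjusted p = 0.0568). Of 10 matrix and surface genes of myofibroblasts, 9 were measured, and Cdh11, the cadherin that joins myofibroblasts, rose by 0.94 in Mmp13-/- (adjusted p = 0.00352 from limma) and by 1.32 in WT tissue (adjusted p = 8.34e-05). The WT rise of Cdh11 was 1.16 without WT 7 d replicate 1 (adjusted p = 0.000741 from limma). Thbs2, a matricellular thrombospondin, rose in WT tissue (0.92, adjusted p = 0.0245), a call lost without WT 7 d replicate 1 (0.81, adjusted p = 0.1003) and without WT 14 d replicate 3 (0.85, adjusted p = 0.104), and Cthrc1, a secreted protein of activated fibroblasts, fell by 0.92 in Mmp13-/- tissue (adjusted p = 0.0273). The median difference of these 9 was 0.56 in Mmp13-/- and 0.72 in WT tissue.

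Of the fibroblast markers 3 were called in at least 1 comparison, and of the endothelial and keratinocyte markers 1 each. Of all genes, 0.022% were called between the genotypes at 14 d and 0.0879% for the mean of the genotype differences over the days. Between 7 d and 14 d, 0.945% of all genes were called in Mmp13-/- and 2.54% in WT tissue. Of 6 fibroblast markers measured out of 7, Lum, the matrix proteoglycan lumican, was lower in Mmp13-/- than in WT tissue at 14 d (-0.94, adjusted p = 0.0274 from limma). The mean of its genotype differences over the days was also called (-0.61, adjusted p = 0.0111 from limma). Dcn was lower at 14 d than at 7 d in Mmp13-/- tissue (-0.48, adjusted p = 0.0128 from limma). Pdgfra was higher at 14 d than at 7 d in WT tissue (0.75, adjusted p = 0.00842 from limma), also without WT 7 d replicate 1 (0.74, adjusted p = 0.0326). Of 7 endothelial markers, Eng was higher at 14 d than at 7 d in WT tissue (0.49, adjusted p = 0.0125 from limma), but not without WT 7 d replicate 1 (0.42, adjusted p = 0.0683) or WT 14 d replicate 3 (0.40, adjusted p = 0.0711). Of 8 keratinocyte markers, 5 of them dim, Dmkn was lower at 14 d than at 7 d in Mmp13-/- tissue (-2.21, adjusted p = 0.0185 from limma). Its WT difference of -0.99 did not pass (adjusted p = 0.402 from limma). None of 6 macrophage markers was called. The part of these cells in the member genes' changes was not tested.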

How the data were processed

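Total RNA from the 22 tissue samples was labelled and hybridized to Affymetrix whole-genome mouse expression arrays. The deposited log2 values were made by the authors with RMA, that is background correction, quantile normalization between arrays and summarisation of probes into probe sets. Whether all arrays were normalized in 1 run is not given in the sources used here, and quantile normalization hides differences in total signal. The 64 control probe sets were left out. Of the 45037 probe sets tested, 34945 were annotated to 1 gene, 932 to several and 9160 to none in the platform table, and probe sets of several genes were not used to name a gene.

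Every probe set was fitted in limma 3.58.1 (R 4.3.3) with 6 group means and the hybridization series, followed by eBayes and Benjamini-Hochberg adjustment. The fit was tested on simulated data. Exact two-sided permutation tests compared the genotypes for each gene and day. The members and all gene lists were chosen with earlier results of these data known. All members were named, and from each other list up to 3 called genes per comparison with the smallest adjusted p, and the 8 genes closest to Acta2 by Pearson r. The lists were contractile partners, regulators, myofibroblast matrix genes and markers of skeletal muscle, pericytes, endothelial cells, fibroblasts, macrophages and keratinocytes. Alternatives were no hybridization term, 1 series only, only the groups compared, eBayes with trend, median centring, no dim probe sets, the mean of a gene's probe sets, a replicate block, each array left out, and, chosen after seeing the data, the skeletal muscle mean as covariate. Precision is limited by the small number of arrays, and p-values measure the spread between mice of 1 experiment.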

Additional observations from a re-analysis of the deposited data

Results flagged for a closer look

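Among the 40 sets of 4 arrays examined, 1 for each gene and group at 14 d and 21 d, 3 had 1 array whose gap to its nearest neighbour took up more of the set's range than Dixon's 95% critical value allows. Chance alone is set to flag about 0.05 of such sets. Actg2 in Mmp13-/- tissue at 21 d read 5.24 in replicate 4 and 6.76 to 7.04 in the others, a gap of 0.844 of the range. Myh11 in Mmp13-/- tissue at 21 d read 3.92 in replicate 2 and 4.71 to 4.81 in the others, a gap of 0.888 of the range. Des in WT tissue at 21 d read 7.76 in replicate 2 and 7.40 to 7.43 in the others, a gap of 0.917 of the range.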

How the results depend on the processing

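The count of member probe sets called between 7 d and 14 d in WT tissue was 6 and became 0 when only the arrays of those groups were fitted. Between 14 d and 21 d in WT tissue it was 0 and became 2 without the hybridization term, under which 4657 probe sets were called in all. With 1 array left out the count for 14 d minus 7 d was 2 to 3 in Mmp13-/- tissue and 3 to 5 in WT tissue, and 0 in every other comparison. It was 2 without Mmp13-/- 7 d replicate 1 or 2, and 3 without WT 7 d replicate 1 or WT 14 d replicate 3. Calls in Mmp13-/- tissue of genes other than the members are not given with arrays left out. Over all probe sets, 283 were called for 14 d minus 7 d in Mmp13-/- tissue, and 79 without Mmp13-/- 14 d replicate 3. The cause of these shifts was not tested. Of the single genes, Acta2 in WT tissue lost its call most often, with limma adjusted p of 0.0557 under eBayes with trend and 0.435 by the mean of its 3 probe sets, 2 of them dim, and was called in Mmp13-/- tissue when only those arrays were fitted (1.09, adjusted p = 0.0319). No value changed its sign with a call. For same-numbered arrays of the 2 genotypes, r of the deviations from the group means lay between -0.204 and 0.503. This leaves out replicate 4 at 14 d, where it is -1 by construction. With so few arrays per group these values cannot show whether the numbers pair mice, and the main fit treats the arrays as unpaired. With the replicate block the member counts were 3 in Mmp13-/- and 6 in WT tissue for 14 d minus 7 d and 0 in the other comparisons, and the count over all probe sets for 21 d minus 14 d in WT tissue was 1. The genotype comparisons kept 0 calls under every alternative run.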
